A study of Homo sapiens with 9 samples.

Results

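The 61 captured regions of the genome described here are stretches in which capture Hi-C (cHi-C), a form of Hi-C enriched for ligation products from chosen places, gave values in growing and in RAS-induced senescent (RIS) fibroblasts. A region was a run of consecutive 10 kb bins with values in all 4 cHi-C libraries, in which gaps of up to 5 bins were joined and runs of fewer than 20 bins were left out. The rule used the presence of values and not their size, and it kept 5890 of the 309579 bins of the genome, out of 5932 bins that had values in any cHi-C library. The cells were IMR90, a line of human lung fibroblasts, at passage 20-25 and infected with ER:HRAS(G12V), an oncogenic HRAS fused to the oestrogen receptor that 4-hydroxytamoxifen (4OHT) switches on. The growing cells (2 libraries, here growing 1 and growing 2) carried the same construct and received no 4OHT, whereas RIS cells (2 libraries, RIS 1 and RIS 2) were given 100 nM 4OHT for 6 days. The RIS cells therefore differ from the growing cells in the drug and in the 6 days as well as in RAS, which cannot be told apart here, and while the study calls its Hi-C replicates biological, the labels do not say whether they came from separate cultures. Hi-C without capture, from 3 growing and 2 RIS libraries of the same cells, is given beside some results, where growing replicate 3 also carried an MSCV vector. The labels do not say whether the cHi-C libraries were enriched from these Hi-C libraries, so the Hi-C values are shown side by side and are not independent support.

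Chromatin of interphase cells is folded by cohesin, a ring that extrudes loops until it meets CTCF bound to DNA, and neighbouring stretches with few contacts between them are separated by borders, many of which hold CTCF. Within such a stretch contacts become rarer as the distance between loci grows, and the rate of this decay is a measure of how the fibre is folded. Senescence is a lasting arrest of the cell cycle in which the cell secretes cytokines, chemokines and matrix proteases, the senescence-associated secretory phenotype (SASP).

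The regions were 280 to 3520 kb long, with a median of 910 kb, held 0 to 61 whole protein-coding genes each, with a median of 10, and had a GC content of 34.7% to 59.3%. They are called here by genes they hold. In all, 24 genes of the SASP list lay in 9 regions, 12 genes of cell cycle and arrest in 9, 8 genes of TGF-beta signalling in 4, 8 genes of chromatin and histones in 4, 6 genes of matrix and adhesion in 5, and 10 genes active in other tissues in 6, and 5 regions held no whole protein-coding gene. The MALT1 and FAT4 regions were not on the study's list of captured regions and had little depth. The deposited values are balanced contacts, that is, contacts divided by a factor per bin, from which whole contacts were recovered. Growing 1 held 171651432 recovered contacts and growing 2 held 149293478, against 99758629 in RIS 1 and 68884349 in RIS 2, so that depth moved with the condition. Of these, 72.2% to 74.2% lay within the regions. Its part in the results was not tested.

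Sequences beside changed positions and shared borders are shown first, because the local results below are about positions where contacts across a point changed. The CTCF core consensus, of 12 letters and searched on both strands of GRCh37 (equal to hg19 in the lengths of all 24 chromosomes), matched in 5.2% of the 5890 bins. Beside 9.4% of the 4885 positions at which insulation could be tested, a match lay within 10 kb. Of the 10 positions with the smallest p for a change in RIS, 2 had one, namely those of the keratin and IL1A/IL1B regions. The match lay 3.4 kb from the keratin position and 8.8 kb from the IL1A/IL1B position, which was not itself at a border. For comparison serve 3 of the borders with the lowest values in growing cells, among those that all 4 libraries shared and that held a match. Each sequence reads 5′ to 3′ along the minus strand, with the consensus match in capitals.
keratin, changed position, chr12:53273387-53273446, between genes, 17.5 kb past the 3′ end of KRT8: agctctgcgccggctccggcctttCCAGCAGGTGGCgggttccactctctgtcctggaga
IL1A/IL1B, changed position, chr2:113678776-113678835, between genes, 2.3 kb past the 3′ end of IL37: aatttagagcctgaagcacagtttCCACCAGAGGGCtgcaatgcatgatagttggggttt
PRKAR1A, shared border, chr17:66459279-66459338, in an intron of a gene without a symbol, 5.6 kb before the start of WIPI1: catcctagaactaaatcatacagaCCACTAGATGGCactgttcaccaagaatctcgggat
HSP90AB1, shared border, chr6:44042431-44042490, in an exon of a gene without a symbol, 38.7 kb past the 3′ end of MRPL14: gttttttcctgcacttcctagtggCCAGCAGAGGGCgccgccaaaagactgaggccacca
IGF2, shared border, chr11:2177839-2177898, in an intron of IGF2: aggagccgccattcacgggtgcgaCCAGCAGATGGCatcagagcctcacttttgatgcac
A match is a description of letters and not of bound CTCF, and the absence of a match at the other 8 positions says nothing about CTCF there.

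The question of where the fold of each region changed locally was addressed with an insulation value, the log2 of the mean contact between the 100 kb before and the 100 kb after a position over the mean of the region. A lower value means fewer contacts across the position relative to the region mean, which is read here as a stronger border. Contacts across a position are given on this scale throughout. The value has no correction for distance, so it also moves with the level and the decay of the region. In RIS, contacts rose across a position past the 3′ end of COL1A2 and across positions in the HIST1 and IL1 clusters, and fell across positions beside MMP1 and at the start of TLE3. Of 4885 positions, 2096 passed an adjusted p of 0.05 in limma (42.9%), 1279 with more (26.2%) and 817 with fewer (16.7%) contacts across them in RIS, and at 74.5% of positions the growing and RIS libraries did not overlap. Neighbouring positions share pairs of bins, so these counts are not of separate borders. The split depended on the window, with 1409 higher and 366 lower at 50 kb and 694 higher and 1195 lower at 200 kb. The decay of the regions, described below, changed as well, and its part in this split was not tested. Without growing 1 the count fell to 1276 and without growing 2 to 1377.

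The COL1A2 region (chr7:93550001-94520000) held the largest change of all positions. COL1A2 encodes a chain of type I collagen, the main fibrillar collagen that fibroblasts deposit. At chr7:94070001, 9.5 kb past the 3′ end of COL1A2 and inside no gene, the insulation value was −1.23 in growing 1, −1.33 in growing 2, −0.58 in RIS 1 and −0.60 in RIS 2. The border was deep in both growing libraries and shallower in both RIS libraries, with no overlap. Contacts across it were 1.61-fold higher in RIS (log2 difference 0.69, SE 0.035, limma adjusted p = 0.000293). At a position 150 kb before it on the chromosome, 104.2 kb before the start of COL1A2, the values were −0.83 and −0.83 in growing cells against −0.34 and −0.43 in RIS. The peak of contact between these borders stayed at 1.72 and 1.73 in the growing and 1.67 and 1.73 in the RIS libraries, and its difference was not called (−0.021, adjusted p = 0.534). The borders on either side were shallower in RIS, and between the peak and chr7:94070001 contacts across the positions 70 to 40 kb before it fell, by 0.31 at 50 kb (adjusted p = 0.0004). The coverage of the bins beside chr7:94070001 moved as well, from 2.77 and 2.79 times the median bin in growing to 2.03 and 2.03 in RIS libraries, and its part in the result was not tested. On recovered contacts, without the balancing factor of each bin, the difference at chr7:94070001 was 0.44, and that at the position before COL1A2 was 0.25 in place of 0.44. With a window of 200 kb the difference was 0.11 at chr7:94070001 and 0.11 at the position before COL1A2. In Hi-C at 40 kb the values at chr7:94070001 lay between −0.74 and −0.83 in growing cells. They were −0.72 and −0.80 in RIS cells, where the groups overlapped. At the position before COL1A2 the Hi-C values were −0.38, −0.413 and −0.423 in growing and −0.425 and −0.435 in RIS libraries. The RIS libraries there lay slightly below all growing libraries, the reverse of cHi-C. The Hi-C value of a position is another measure, taken at the nearest edge of a 40 kb bin and over wider sides. It is relative to the mean contact at the same distances, so its size cannot be set against that of cHi-C.

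Matrix metalloproteinases degrade collagens and other matrix and are part of the SASP, and MMP1 is the interstitial collagenase. In the MMP region (chr11:102360001-102990000), at chr11:102670001, 1.1 kb before the start of MMP1, the insulation value was 0.27 in growing 1, 0.25 in growing 2, −0.17 in RIS 1 and −0.11 in RIS 2. Both RIS libraries had a border at this position, a local minimum at least 0.3 below its flanks, and neither growing library had one within 20 kb. Contacts across the position were 0.761-fold those of growing cells (log2 difference −0.39, SE 0.026, limma adjusted p = 0.000375). The neighbouring position chr11:102660001, 0.1 kb past the 3′ end of MMP1, changed as much (difference −0.40, adjusted p = 0.000403), so the change is not placed at either end of the gene. In Hi-C the 3 growing libraries gave 0.094, 0.11 and 0.073 at chr11:102670001 and the RIS libraries −0.17 and −0.11, with no overlap. At chr11:102660001 the Hi-C values were 0.13 in each growing library against 0.12 and 0.095 in RIS, a far smaller gap. The neighbouring minima of the profile, 130 kb before and 140 kb after it, changed by −0.11 and 0.13.

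**Figure D1:**
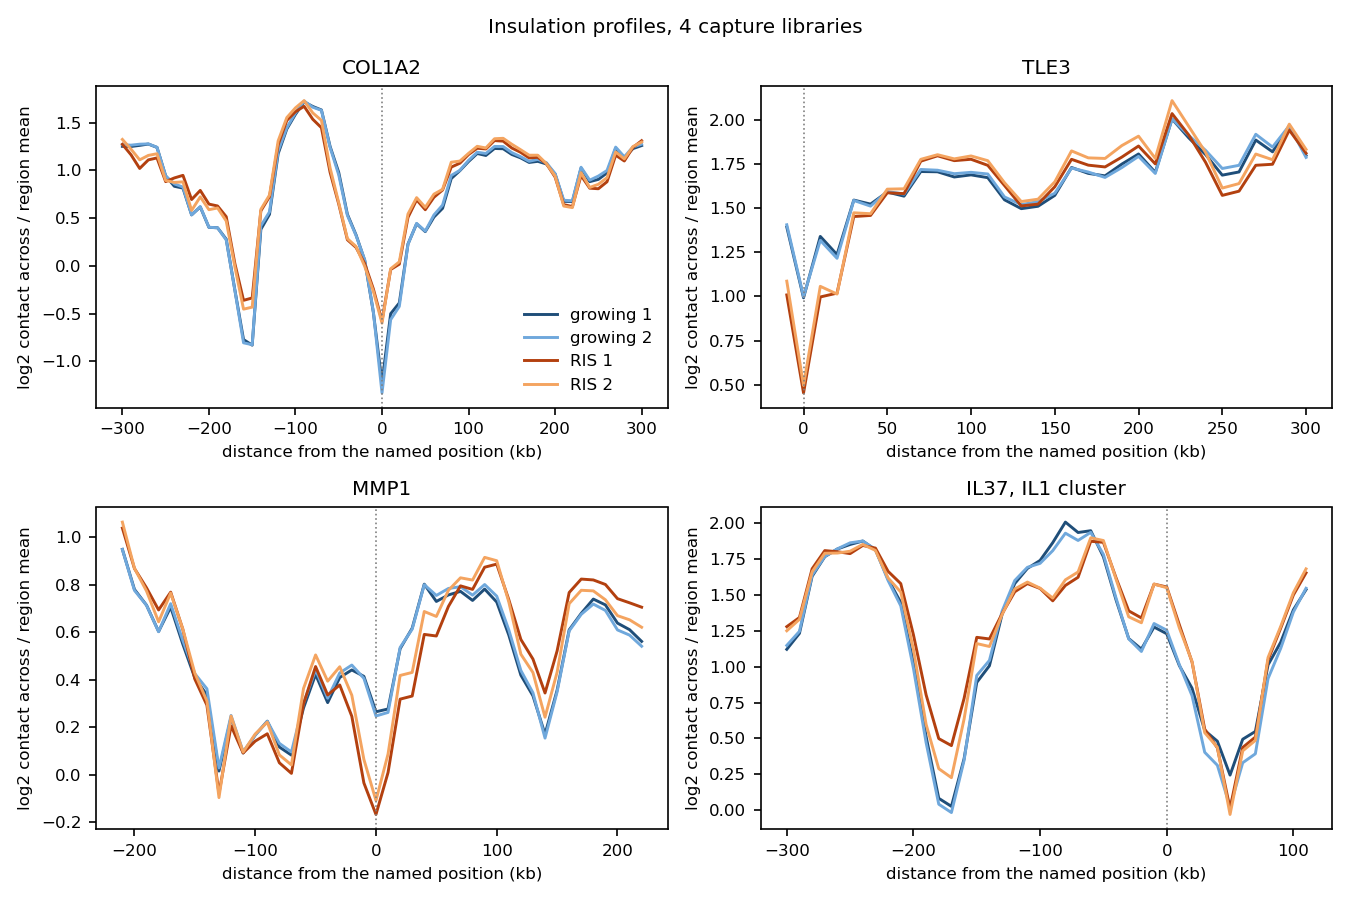
Insulation value (log2 of contact across a position over the region mean) of each of the 4 capture libraries against the distance in kb from 4 of the 10 positions with the smallest p. At 0 kb, the RIS libraries lie above the growing libraries beside COL1A2 (−0.58 and −0.60 against −1.23 and −1.33) and in IL37, and below them at the start of TLE3 (0.45 and 0.50 against 0.99 and 1.00) and beside MMP1, and at these positions the libraries of a condition lie closer to each other than to those of the other condition.

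The IL1 cluster (chr2:112270001-113880000) holds IL1A and IL1B, the cytokines at the head of the SASP, and other members of the family. At chr2:113670001, within IL37 and 1.3 kb from its start, the insulation value was 1.23 and 1.25 in growing cells and 1.56 and 1.55 in RIS. IL37 encodes a member of the family that dampens inflammation, and contacts across its start were 1.24-fold higher in RIS (log2 difference 0.31, SE 0.021, limma adjusted p = 0.000375). The change went the other way inside IL1B, at chr2:113590001, where the values were 2.01 and 1.93 in growing against 1.57 and 1.60 in RIS cells. This was the largest change of the region (log2 difference −0.38, adjusted p = 0.000377), and it was chosen on these values. The minimum of the profile 170 kb before IL37 was shallower in RIS, with 0.45 and 0.23 against 0.027 and −0.016 (difference 0.33, adjusted p = 0.0063), whereas the minimum 50 kb after it had 0.012 and −0.029 against 0.25 and 0.024 and was not called (adjusted p = 0.106). Over the whole region 51 of 126 positions had more and 14 fewer contacts across them in RIS.

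TLE3, a Groucho-family co-repressor, had the smallest p of all. At chr15:70390001, 0.5 kb from the start of TLE3 and in an exon of it, the insulation value was 0.99 and 1.00 in growing cells against 0.45 and 0.50 in RIS. Contacts across the start were 0.697-fold those of growing cells (log2 difference −0.52, SE 0.023, limma adjusted p = 0.000293), and the difference was −0.25 on recovered contacts. Towards higher coordinates the change was local, since 30 kb further the difference was −0.082, and 80 kb further it was 0.089 with the opposite sign. On the other side only the position 10 kb before could be tested, and there the difference was still −0.35 (limma adjusted p = 0.0004). In Hi-C the values were −0.14, −0.074 and −0.093 in the growing and −0.30 and −0.38 in the RIS libraries, without overlap.

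CD44, the receptor for hyaluronan, lies in a region (chr11:34440001-36530000) with 2 of the 10 positions. Inside CD44, at chr11:35220001, 59.6 kb from its start, the value was 0.84 and 0.84 in growing cells and 0.49 and 0.54 in RIS (log2 difference −0.33, SE 0.023, limma adjusted p = 0.000375). Inside PDHX, a subunit of the pyruvate dehydrogenase complex, at chr11:34990001, it was 0.67 and 0.66 in growing cells against 1.02 and 1.02 in RIS (difference 0.35, and 0.15 on recovered contacts). The same region thus gained contacts across a point in PDHX and lost them across a point in CD44, both without overlap of the groups. Of its 190 positions, 78 were higher and 33 lower in RIS.

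Of the remaining 4 positions, 3 rose and 1 fell. In the HIST1 cluster, whose genes encode the histones made in S phase, the value at chr6:26060001, 3.3 kb before the start of the linker histone gene H1-2, was 0.91 and 0.93 in growing cells against 1.23 and 1.22 in RIS. In the SAA1/LDHA region, at chr11:17680001, 11.3 kb past OTOG, which encodes a protein of the inner ear, it was 1.56 and 1.54 in growing cells against 1.85 and 1.87 in RIS. In the ISG15/AGRN region, at chr1:1530001, 3.4 kb past FNDC10, it was 1.14 and 1.16 against 1.47 and 1.48, in bins with 0.098 to 0.157 times the median coverage. Beside the keratin cluster, whose KRT8 encodes a keratin of simple epithelia, the value at chr12:53270001 fell from −0.60 and −0.65 to −0.99 and −0.99, so the border 21.0 kb past KRT8 was deeper in RIS. All 4 passed with limma adjusted p = 0.000375, with differences of 0.305 to 0.321 for the rises and −0.36 for the fall, and did not overlap.

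By size rather than by p, the next 3 positions after COL1A2 and TLE3 were these, chosen on their values. Contacts rose across a point in HPS5, which serves the sorting of proteins to lysosome-related organelles, 28.5 kb past SAA1, from 0.86 and 0.95 to 1.39 and 1.33. They fell across a point in DCBLD2, in the COL8A1 region, from 1.29 and 1.27 to 0.92 and 0.80. SAA1 encodes serum amyloid A, an acute-phase protein, and COL8A1 a chain of type VIII collagen. The value 104.2 kb before COL1A2, described above, lay between them in size.

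The share of positions called differed widely among regions. It was 71.9% in the APP region, 71.4% in IGF2, 70.0% in HBA, 69.9% in SAA1/LDHA and, further down, 66.7% in COL1A2 and 58.4% in CD44. In the HIST2 histone, PABPC4 and gene-free chromosome 16 regions it was 0.0%, where PABPC4 had 9 positions to test. The NOTCH1 region had 87.5%, but of only 8 positions. The median share over all regions was 43.8%. The median was 58.4% in regions with matrix and adhesion genes, 54.3% in those with genes active in other tissues, 51.6% with SASP genes, 44.4% with chromatin and histone genes, 43.9% with genes of cell cycle and arrest, 38.6% with TGF-beta genes and 6.2% in the 5 without a whole gene. The matrix and adhesion list leaves out the collagen regions COL8A1 (31.4%) and COL6A3 (27.3%). The median absolute change was 0.077 for SASP, 0.079 for matrix, 0.078 for genes active in other tissues, 0.035 for the 5 regions without a whole gene and 0.058 for all regions.

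Most borders were present in every library. Borders, defined as local minima at least 0.3 (log2) below their flanks, numbered 239 and 245 in growing and 246 and 267 in RIS libraries. Of the borders of growing 1, 95.8% had a partner within 20 kb in growing 2, 87.9% in RIS 1 and 91.6% in RIS 2, and of those of RIS 1, 97.2% had one in RIS 2 and 85.4% and 87.8% in growing 1 and growing 2. For each of these libraries the partner of the same condition shared more borders than either library of the other. In all, 202 borders were found in all 4 libraries, 14 in both growing and no RIS library and 22 in both RIS and no growing library. Those 14 included positions in the COL1A2, SAA1/LDHA, IL7 and HIST1 regions, and the 22 included positions in the MMP, SMAD2, TGFB3, CDK18 and HMGA1 regions. The insulation value itself was called at 13 of the 14 and 15 of the 22, where 42.9% of all positions were called. These borders were chosen on the same values, so the counts are a description and no test. The other 7 of the 22 included positions in KLK (0.005), SMAD7/SMAD4 (−0.009) and TGFB1/AXL (−0.021) with hardly any change. Of the 22, 5 lay within 40 kb of one of the 14, in the CAMTA1, SAA1/LDHA, CD44, TGFB1/AXL and KLK regions. A CTCF consensus match within 10 kb was found for 25.7% of the 202, 21.4% of the 14 and 27.3% of the 22 borders, where 9.4% of all positions had one.

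The next question was whether a region as a whole gained or lost contacts in RIS. The measure was the log2 of the summed observed over the summed expected contact of all pairs of bins 20 kb to 1 Mb apart, where expected is the mean of that library at that distance over all regions. A change is therefore relative to the other captured regions. Regions around SMAD2 and around SMAD4 and SMAD7, of the TGF-beta pathway, and the histone cluster HIST1 gained contacts, and the collagen regions COL1A2 and COL8A1, the CDK1 region and a gene-free stretch of chromosome 2 lost them. The changes were small, at most 10.5% of the level. In limma, 20 of 61 regions passed an adjusted p of 0.05 (32.8%), 11 with more and 9 with fewer contacts in RIS, and in 40 regions (65.6%) the growing and RIS libraries did not overlap. Scaling the libraries by their median over regions gave 5 higher and 20 lower regions in place of 11 and 9. On recovered contacts, without the balancing factor of each bin, 43 regions were called (70.5%), among them 11 of the 20 in the same direction, while 6 of the 20 had the opposite sign. Without growing 1, 10 regions were called, and without growing 2, 9. The calls of TGFB3, CCL2, keratin, CCNA2/ANXA5, SMAD1 and the gene-free region of chromosome 4, all higher in RIS, were lost with the scaling by the median and without either growing library.

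SMAD2 and SMAD3 carry the TGF-beta signal to the nucleus with SMAD4, SMAD1 does so for bone morphogenetic proteins, and SMAD7 inhibits these signals. The SMAD2 region (chr18:45290001-46200000) had a log2 observed over expected contact of −0.42 and −0.43 in growing 1 and growing 2 and −0.31 and −0.30 in RIS 1 and RIS 2. The RIS libraries were higher without overlap (difference 0.12, SE 0.014, limma adjusted p = 0.0208). The neighbouring region with SMAD7 and SMAD4 (chr18:46400001-49920000), the longest of the 61, had −0.50 and −0.51 against −0.41 and −0.40 (difference 0.10, SE 0.015, adjusted p = 0.0209), and was not called on recovered contacts (0.077, adjusted p = 0.0549). The SMAD1 region had 0.037 and 0.038 in the growing and 0.12 and 0.096 in the RIS libraries (difference 0.068, adjusted p = 0.0298), but −0.028 on recovered contacts. The SMAD3 region had −0.17 and −0.14 against −0.13 and −0.12 and was not called (difference 0.030, adjusted p = 0.197), but it was called higher on recovered contacts (0.091, adjusted p = 0.0307). So 3 of the 4 regions of the TGF-beta signalling list were called higher and 0 lower, with a median change of 0.086, where 18.0% of all regions were called higher and the median of all was −0.006. The list leaves out the ligands, which are counted with the SASP below. Of their regions TGFB3 was called higher, and TGFB1/AXL (0.004) and TGFB2 (−0.048) were not called. On recovered contacts the median was 0.084 for the 4 regions of the list and 0.091 for all regions, and after scaling by the median only SMAD2 and SMAD7/SMAD4 of the 4 were called. In Hi-C the difference was 0.15 for SMAD2 (adjusted p = 0.000437), 0.045 for SMAD7/SMAD4 (0.0742), 0.045 for SMAD3 (0.0126) and −0.003 for SMAD1 (0.882).

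The HIST1 cluster (chr6:25300001-26690000, 49 whole genes) had the smallest p, with −0.21 and −0.21 in the growing and −0.071 and −0.072 in the RIS libraries. Both pairs of replicates lay almost on top of each other, and contacts were 1.10-fold higher in RIS (difference 0.14, SE 0.013, limma adjusted p = 0.0166). On recovered contacts the difference was 0.071 and was not called (adjusted p = 0.0601), and in Hi-C it was 0.031 (adjusted p = 0.0926). The other histone cluster, HIST2 on chromosome 1, had a difference of −0.007 (adjusted p = 0.809). HMGA1, which encodes an architectural chromatin protein that accumulates in senescence, lay in a region with a difference of −0.014 that became 0.32 on recovered contacts, and the HOXA cluster of developmental transcription factors had −0.020. Neither was called on balanced values, so of the 4 chromatin and histone regions 1 was higher and 0 lower, beside 18.0% and 14.8% of all regions, whereas HMGA1 was called higher on recovered contacts (adjusted p = 0.00135). Besides these, the rises among the 5 largest were those of MALT1 (difference 0.14, adjusted p = 0.0286), a paracaspase gene in a region outside the study's list, and of a region with parts of DNAH5 and TRIO, a dynein heavy chain and a guanine nucleotide exchange factor, with 0.11 and 0.11 in the growing and 0.24 and 0.20 in the RIS libraries (difference 0.11, adjusted p = 0.0209, and 0.072 with adjusted p = 0.138 on recovered contacts and 0.015 with adjusted p = 0.618 in Hi-C). The MALT1 libraries stood at −0.26, −0.25, −0.15 and −0.072 in the order growing 1, growing 2, RIS 1 and RIS 2, and its Hi-C difference was −0.021 (adjusted p = 0.137).

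Among the falls, the largest estimates belonged to regions that the test did not call. The ISG15/AGRN region, with an interferon-induced ubiquitin-like gene and the gene for agrin, had 0.21 and 0.16 in the growing and 0.095 and −0.015 in the RIS libraries (difference −0.14, SE 0.043, limma adjusted p = 0.0621), with 0.30 on recovered contacts and −0.15 in Hi-C (adjusted p = 0.0744). The HBA region, with the alpha-globin genes, had 0.16 and 0.10 against 0.042 and −0.068 (difference −0.14, adjusted p = 0.0656), with 0.21 on recovered contacts, and in Hi-C the groups overlapped (−0.0007, adjusted p = 0.986). In both regions the RIS libraries lay below the growing libraries but apart from each other. Both were called lower with other settings on balanced values, with adjusted p = 2.72e-07 each after scaling by the median, 0.0216 and 0.0321 without a correction for distance and 0.0139 and 0.0242 from 50 kb. They were also called lower with the replicate number as a block, as given in the closing section. After scaling by the median the adjusted p followed the size of the change alone over all regions. It thus rests on a shared spread and not on how far apart the libraries of ISG15/AGRN or HBA lay. Neither was called without growing 1 (adjusted p = 0.101 and 0.104), and without RIS 2 the falls were −0.089 and −0.087. The ISG15/AGRN difference was −0.055 (adjusted p = 0.265) with bins of low coverage left out and −0.063 (adjusted p = 0.256) where gaps of up to 2 bins were joined. Of the called falls, the gene-free region of chromosome 2 had 0.52 and 0.57 in the growing and 0.41 and 0.40 in the RIS libraries (difference −0.14, SE 0.022, adjusted p = 0.0209). The CDK1 region, named for the kinase that drives entry into mitosis, had 0.37 and 0.39 against 0.24 and 0.26 (difference −0.13, SE 0.017, adjusted p = 0.0209), and in Hi-C −0.075 (adjusted p = 0.0055). The COL6A3 region, with a chain of type VI collagen, had 0.40 and 0.46 against 0.30 and 0.30 (difference −0.13, SE 0.025, adjusted p = 0.0286), but 0.0001 on recovered contacts and −0.023 in Hi-C (adjusted p = 0.392).

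COL8A1 and COL1A2 were lower in RIS on balanced values, after scaling by the median, on recovered contacts and in Hi-C. COL8A1 had 0.25 and 0.28 in the growing and 0.17 and 0.12 in the RIS libraries (difference −0.12, adjusted p = 0.0286), with −0.19 on recovered contacts and −0.076 in Hi-C. COL1A2 had 0.41 and 0.42 against 0.34 and 0.32 (difference −0.087, adjusted p = 0.026), with −0.14 on recovered contacts and −0.099 in Hi-C (adjusted p = 0.00122). Relative to the other regions the COL1A2 region thus held fewer contacts in RIS. In cHi-C, more contacts crossed the borders 104.2 kb before the start of COL1A2 and 9.5 kb past its end. In Hi-C the groups overlapped at the border past its end, and RIS lay slightly lower at the other. Fewer cHi-C contacts crossed the positions 70 to 40 kb before the border past its end, with a difference of −0.31 at 50 kb before it. In the MITF region, named for a transcription factor of melanocytes, the difference was −0.11, and in the IL7 region, with a cytokine of lymphocytes, −0.084.

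**Figure D2:**
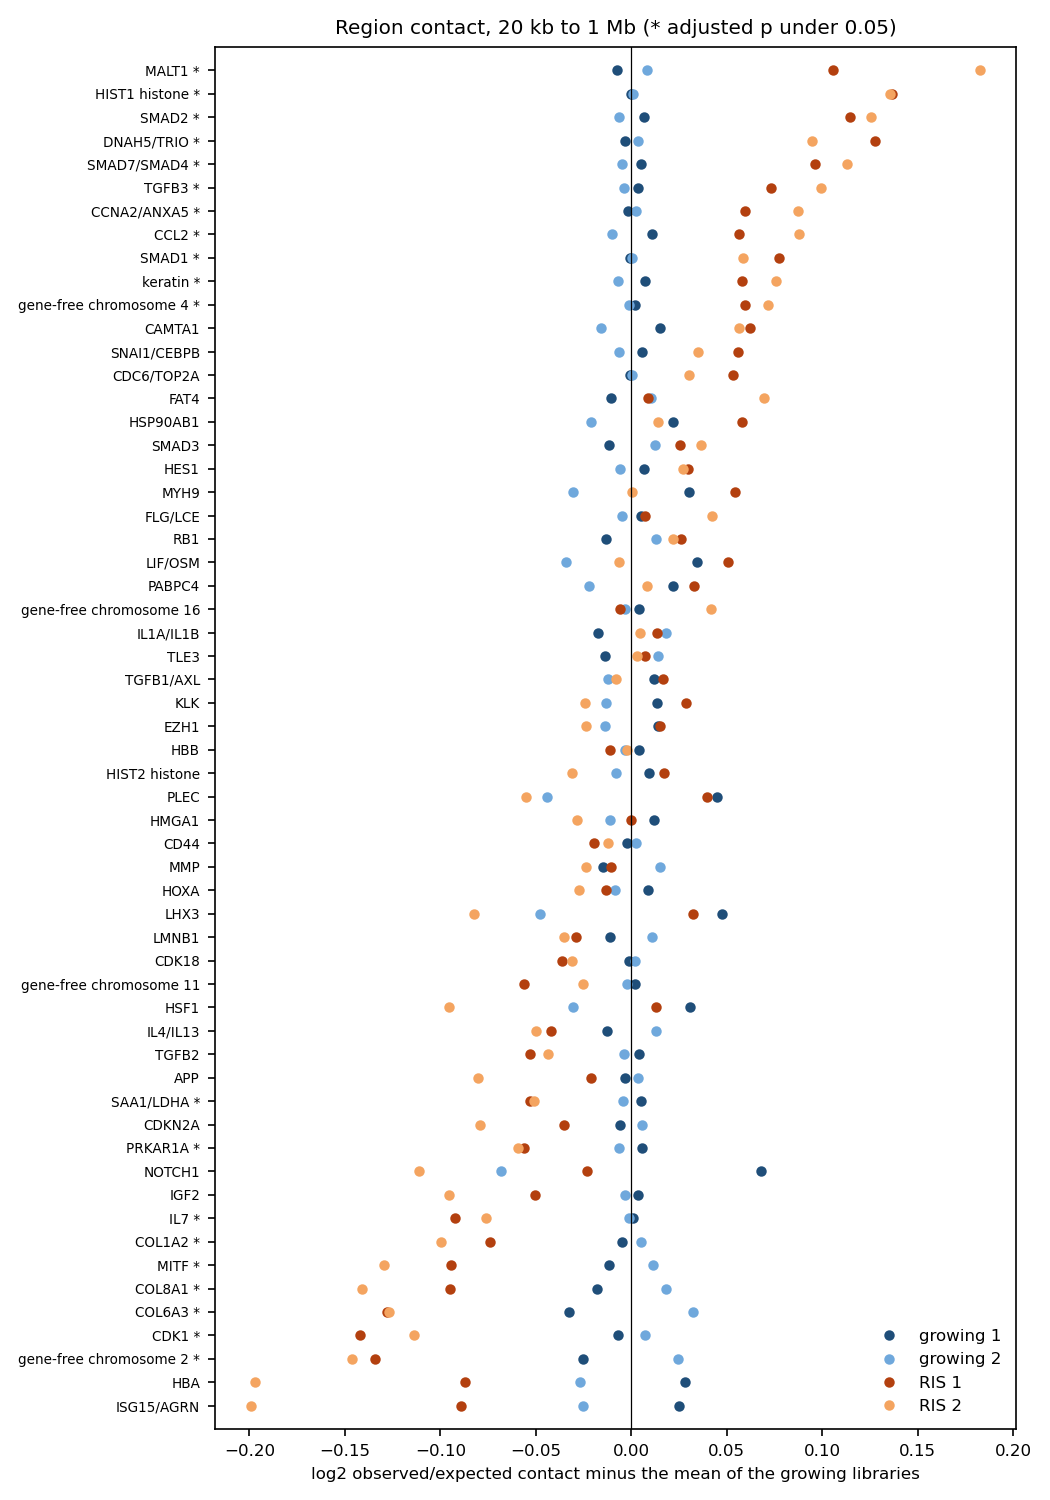
Log2 observed over expected contact (20 kb to 1 Mb) of each capture library minus the mean of the 2 growing libraries, for 58 of the 61 regions ordered by their change, with an asterisk for an adjusted p under 0.05. The RIS points of HIST1 (difference 0.14) and SMAD2 (0.12) lie together above both growing points, whereas those of ISG15/AGRN and HBA (−0.14 each) lie apart from each other and carry no asterisk.

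The 9 regions with SASP genes had changes of −0.084 to 0.086 and a median of 0.004. TGFB3, a ligand of the TGF-beta family, rose from −0.051 and −0.058 to 0.019 and 0.045 (difference 0.086, limma adjusted p = 0.026), and was also higher in Hi-C (0.15, adjusted p = 0.00181). After scaling by the median its difference was 0.057 (adjusted p = 0.0976). CCL2, the monocyte chemoattractant, rose from 0.006 and −0.015 to 0.052 and 0.083 (difference 0.072, adjusted p = 0.042), with 0.12 in Hi-C. After scaling by the median it was 0.042 (adjusted p = 0.226), and the call was also lost from 50 kb (adjusted p = 0.0614) and without RIS 2 (adjusted p = 0.0751). With 2 of 9 higher and 1 lower the class stood beside 18.0% and 14.8% of all regions. IL7 was its 1 called fall, and in Hi-C it stood at −0.20. The other 6 were not called, with 0.022 for LIF/OSM, 0.009 for IL1A/IL1B, 0.004 for TGFB1/AXL, −0.018 for MMP, −0.046 for IL4/IL13 and −0.048 for TGFB2. After scaling by the median, where neither rise was called, IL4/IL13 (−0.076, adjusted p = 0.0219) and TGFB2 (−0.078, adjusted p = 0.018) were called lower beside IL7. The balance of the class thus turned with the scaling. The IL1 and MMP regions, which each held 1 of the 10 insulation positions described above, were thus not called as wholes on balanced values. In Hi-C both were called higher, IL1A/IL1B with 0.068 (adjusted p = 0.00408) and MMP with 0.054 (adjusted p = 0.0195), and on recovered contacts IL1A/IL1B had 0.11 (adjusted p = 0.0111) and MMP −0.010 (adjusted p = 0.815).

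The 9 regions of cell cycle and arrest had a median of −0.017, with CDK1 called lower and CCNA2/ANXA5 called higher, so 1 of 9 in each direction, no more than the 14.8% and 18.0% of all regions. CCNA2, cyclin A2, and ANXA5, a phospholipid-binding annexin, share a region with −0.21 and −0.20 in the growing and −0.15 and −0.12 in the RIS libraries (difference 0.073, adjusted p = 0.0321), which was −0.067 on recovered contacts and −0.061 in Hi-C. The other 7 were not called, among them 5 with these values: CDC6/TOP2A, with genes of replication licensing and DNA topology, stood at 0.042, RB1 at 0.024, LMNB1, which encodes a lamin lost in senescence, at −0.032, CDK18 at −0.034 and CDKN2A, the p16 locus, at −0.057. After scaling by the median CCNA2/ANXA5 was no longer called (0.043, adjusted p = 0.217), and CDKN2A was called lower (−0.087, adjusted p = 0.00874). Of the 5 matrix and adhesion regions, CCNA2/ANXA5 and the keratin region (difference 0.067, adjusted p = 0.0325) were higher, COL1A2 was lower, and CD44 (−0.016) and MYH9 (0.027) were not called, where the same 18.0% and 14.8% of all regions were higher and lower. The list leaves out the collagen regions COL8A1 (−0.12) and COL6A3 (−0.13), which were both called lower. The 6 regions of genes active in other tissues included the keratin region and 5 without a call, namely FLG/LCE at 0.025, KLK at 0.002, HBB at −0.007, IGF2 at −0.073 and HBA at −0.14. The keratin region, which counts in both classes, is the only call among those 6 in the main fit. This call was lost after scaling by the median (0.037, adjusted p = 0.286), from 50 kb (adjusted p = 0.117) and with any library but RIS 1 left out. The same scaling by the median called IGF2 (−0.10, adjusted p = 0.00178) and HBA (−0.17, adjusted p = 2.72e-07) lower.

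Among the 5 regions with no whole protein-coding gene, 2 were called higher and 1 lower, with a median change of 0.018, where 18.0% of all regions were called higher and 14.8% lower. They are 4 gene-free stretches and the DNAH5/TRIO region, which holds parts of 2 genes. On recovered contacts their median was −0.22, against 0.091 for all regions. The stretch on chromosome 4 had 0.098 and 0.095 in the growing and 0.16 and 0.17 in the RIS libraries (difference 0.066, limma adjusted p = 0.0286). On recovered contacts its difference was −0.35 and in Hi-C −0.29 (adjusted p = 0.000437), the reverse of the balanced cHi-C value. The stretches on chromosomes 11 and 16 had −0.041 and 0.018 and were not called, whereas their differences were −0.25 and −0.22 on recovered contacts and −0.23 and −0.20 in Hi-C. After scaling by the median the stretch on chromosome 11 was called lower (−0.071, adjusted p = 0.0315). In Hi-C, 38 of the 61 regions were called (62.3%), 23 higher and 15 lower.

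The size of the region change had next to no relation to base composition in the balanced cHi-C values, with Spearman's rho of 0.026 with GC content over the 61 regions. On recovered contacts of the same libraries rho was 0.82, and for Hi-C 0.60. The change on recovered contacts also had a rho of −0.71 with depth, and as the regions share their libraries these are descriptions only.

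The distance at which contacts were gained or lost was examined in 3 bands. Long-range contacts fell most within the ISG15/AGRN, PLEC, MYH9 and NOTCH1 regions, whose GC content was 49.4% to 59.3%. MYH9 and NOTCH1 are only 510 and 460 kb long, against 1080 and 830 kb for ISG15/AGRN and PLEC. Their longest band thus covers a shorter range of distances. Bins of ISG15/AGRN, PLEC and NOTCH1 were shallow, with 0.10, 0.13 and 0.15 times the median bin in growing 1, against 0.67 in MYH9. The part of depth in these falls was not tested. In limma, 58 of 182 combinations of region and band were called (31.9%), 23 higher (12.6%) and 35 lower (19.2%), in 39 regions, and in 79.1% the groups did not overlap. Scaling by the median turned the balance to 43 higher and 25 lower, and on recovered contacts it was 70 higher and 40 lower. Of 61 regions 6 were higher and 6 lower at 20-100 kb, 7 higher and 9 lower at 110-300 kb, and of 60 regions 10 were higher and 20 lower at 310-1000 kb, where the median change was −0.070. Without growing 1 no combination was called, and without growing 2 only 1 was, although with each RIS library left out 83 and 61 were.

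In the longest band the ISG15/AGRN region had −0.36 and −0.41 in the growing and −1.09 and −1.29 in the RIS libraries (log2 difference −0.81, SE 0.074, limma adjusted p = 0.00644). PLEC, named for the cytolinker plectin, had −0.78 and −0.81 against −1.41 and −1.64 (difference −0.73, adjusted p = 0.00829). MYH9, which encodes a heavy chain of non-muscle myosin, had 0.27 and 0.11 against −0.49 and −0.52 (difference −0.70, adjusted p = 0.0056). In these 3 regions every RIS library lay well below both growing libraries. The NOTCH1 region, with the receptor gene, fell by 0.62, HBA by 0.42, HSF1, the regulator of the heat-shock response, by 0.42, LIF/OSM by 0.41 and LHX3 by 0.40. On the other side SMAD2 rose from −0.67 and −0.67 to −0.34 and −0.37 (difference 0.31, adjusted p = 0.00385), HIST1 by 0.25, the DNAH5/TRIO region and CCNA2/ANXA5 by 0.24 each, and TGFB3 by 0.18.

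Over all regions together, contacts relative to the total of each library were higher in RIS at short and lower at intermediate distance. As the libraries were scaled to the same total over the regions, a rise at some distances goes with a fall at others. The log2 ratio of RIS over growing was 0.070 at 20 kb, 0.022 at 50 kb, −0.019 at 100 kb, −0.083 at 200 kb, −0.12 at 300 kb and −0.096 at 500 kb. At 300 kb each of the 4 ratios of a RIS over a growing library was negative, from −0.16 to −0.082, and at 20 kb each was positive, from 0.052 to 0.088. At 1000 kb the 4 ratios ran from −0.097 to 0.099 and had no common sign.

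The decay was steeper in RIS in most regions. The slope of log2 contact on log2 distance, from 20 kb to 500 kb, had a median of −0.98 in growing and −1.04 in RIS cells. In 55 regions it was steeper in RIS and in 6 shallower, and in 36 of 61 limma called it (59.0%), all steeper. In 50 regions both RIS libraries lay below both growing libraries, and in 3 they lay above (86.9% in all). Limma pooled the spread over regions, so that every region has the same SE of 0.024 and the p-values rest on that shared spread. Without growing 2 the count was 22.

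The MYH9 region (chr22:36530001-37040000) had a slope of −0.97 and −1.02 in the growing and −1.33 and −1.35 in the RIS libraries, a change of −0.35. PLEC had −1.26 and −1.23 against −1.54 and −1.61, a change of −0.33, and ISG15/AGRN had −1.14 and −1.16 against −1.38 and −1.44, a change of −0.26. Within each of these regions the growing libraries lay close together, and the RIS libraries lay far below them. NOTCH1 and LHX3 followed with −0.22 each, LIF/OSM with −0.20, HBA with −0.19 and HSF1 with −0.18. At the other end CCNA2/ANXA5 had −0.91 and −0.90 in the growing and −0.86 and −0.88 in the RIS libraries, a change of 0.030 that was not called, and HIST1 and SMAD2 had 0.021 and 0.018. The Hi-C slopes, from 40 kb to 480 kb, changed by −0.21 in MYH9, −0.18 in ISG15/AGRN, −0.25 in HSF1 and NOTCH1 and −0.24 in LHX3. PLEC was not among the 58 regions with a Hi-C slope. In Hi-C both RIS libraries were below all 3 growing libraries in 36 of 58 regions and above them in 2.

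The change of slope went with base composition. All 15 of the most GC-rich regions (49.3% or more) were called steeper, against 5 of the 15 least GC-rich (38.9% or less), with median changes of −0.17 and −0.030. Spearman's rho between slope change and GC content was −0.70 over the 61 regions, −0.67 on recovered contacts and −0.66 in Hi-C over 58 regions. The slope change also went with depth (rho 0.47), genes per Mb (−0.47) and length (0.41), and these properties of the regions cannot be told apart here. Of the classes, the regions of genes active in other tissues had a median slope change of −0.094, SASP −0.056, cell cycle −0.058 and those without a whole gene −0.026, beside −0.059 for all.

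**Figure D3:**
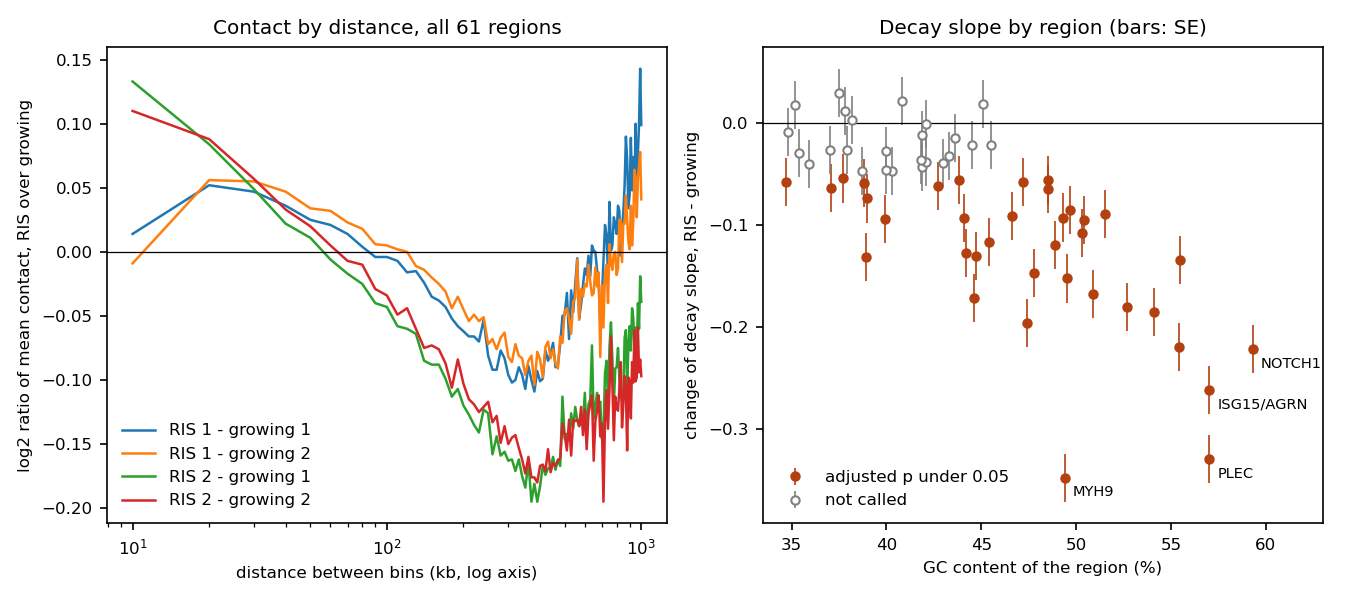
Left, log2 ratio of mean contact of each RIS over each growing library against the distance between bins (kb, log axis), over all 61 regions; right, change of decay slope (RIS minus growing, with SE) of each region against its GC content in percent. All 4 ratios are positive at 20 kb and negative at 300 kb, and the slope changes run from 0.030 in CCNA2/ANXA5 to −0.35 in MYH9 with filled points for called regions, which include all 15 regions of at least 49.3% GC.

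How alike the maps of a region were was measured by the stratum-adjusted correlation, which compares contacts at equal distance and is 1 for identical maps. Libraries of the same condition were more alike than libraries of different conditions in every region. Averaged over regions, the correlation was 0.956 for growing 1 with growing 2, 0.942 for RIS 1 with RIS 2 and between 0.913 and 0.917 for the 4 pairs of a growing and a RIS library. The mean within minus between conditions was 0.034, with an exact permutation p of 0.33, one-sided, which is the smallest that 2 against 2 libraries allow. In all 61 regions the mean within was above the mean between conditions, and in 51 each within-condition pair was above each of the 4 mixed pairs. The RIS libraries held fewer contacts than the growing libraries, and the part of depth was not tested.

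The CDC6/TOP2A region (chr17:37950001-38820000) differed most. CDC6 loads the replicative helicase, and TOP2A untangles DNA in dividing cells. Its maps correlated at 0.944 between the growing and 0.897 between the RIS libraries, but at 0.805 to 0.828 between conditions, a difference of 0.110. COL1A2 followed with 0.980 and 0.964 within and 0.869 to 0.902 between conditions, LMNB1 with 0.980 and 0.953 against 0.883 to 0.903, and CDKN2A, with the most even replicates of these, 0.990 and 0.985 against 0.923 to 0.928. In each of these 4 regions there was a gap between within- and between-condition values. PLEC (0.074) and PABPC4 (0.071), a poly(A)-binding protein gene in the shortest region, lay among the 6 largest differences. The smallest difference was that of the HIST2 histone region, with 0.951 and 0.957 within and 0.942 to 0.958 between conditions, which overlapped, and this region also had 0 of 31 insulation positions called. The 2 histone clusters thus differed, with HIST1 called on its contact level and 53.3% of its positions, and the difference between the clusters was not tested.

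**Figure D4:**
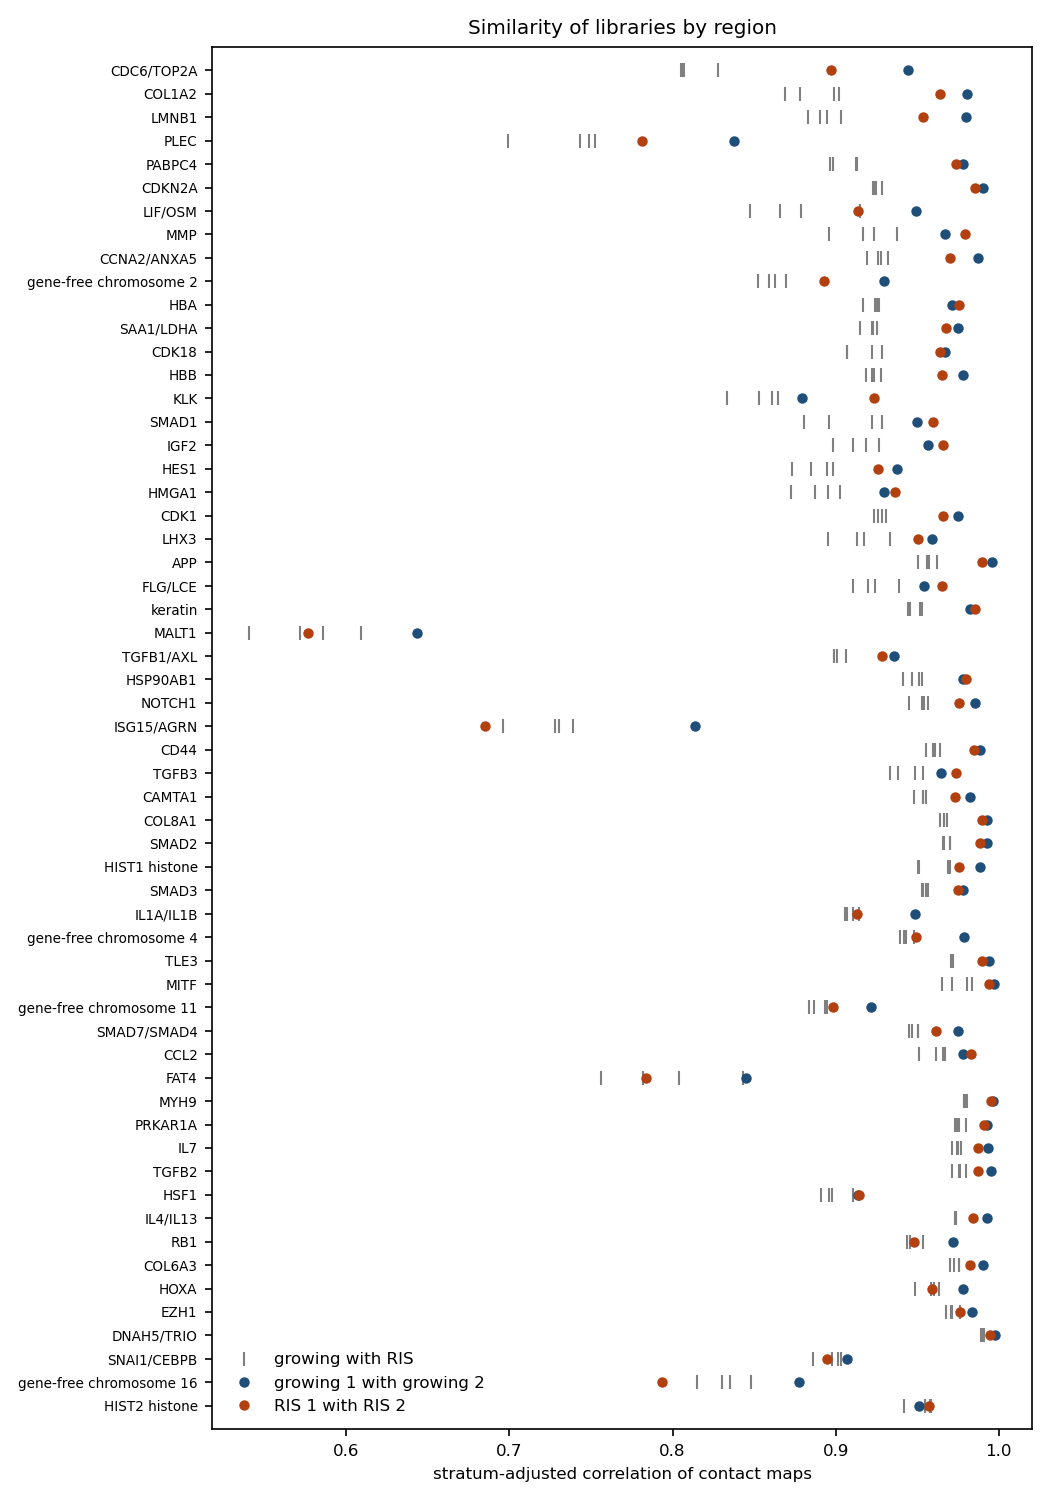
Stratum-adjusted correlation of contact maps for 58 of the 61 regions, with filled points for the 2 growing libraries (blue) and the 2 RIS libraries (orange-red) and grey ticks for the 4 pairs of a growing and a RIS library, ordered by the difference within minus between conditions. CDC6/TOP2A at the top has ticks at 0.805 to 0.828 and points at 0.944 and 0.897, and at the bottom HIST2 has ticks and points together, while MALT1, ISG15/AGRN, PLEC and FAT4 lie to the left for all pairs.

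Regional order therefore depended on the measure. CDC6/TOP2A and CDKN2A ranked high in map dissimilarity without a call on contact level, and had 36.8% and 22.6% of positions called. MYH9 ranked first in slope change with a contact level of 0.027 that was not called. The similarity difference had a Spearman's rho of 0.079 with GC content and 0.009 with depth over the 61 regions, in contrast to the slope change.

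The number of single pairs of 10 kb bins called depended on the test. Of 359074 pairs, limma on log2 balanced values called 64 (0.0178%), 59 higher (0.0164%) and 5 lower (0.00139%), of which 19 lay in the low-depth MALT1 region and 5 in FAT4, and 47987 had a p under 0.05 before adjustment. In a simulation this test found 0 of 200 pairs changed 3-fold among 60000, so its count carries little weight. A count-based weighting (voom) found 174 of the 200 in the simulated counts. The simulation held counting error only, without other spread between replicates or changes of bin coverage, so it does not show how reliable calls on real pairs are. On recovered contacts voom called 41917 of the real pairs (11.7%), 21450 higher (5.97%) and 20467 lower (5.7%). By voom the share of pairs called was highest in MYH9 (37.6%), MITF (34.4%), PABPC4 (34.3%) and COL1A2 (33.1%), beside a median of 14.9% over regions. In MITF 466 of the called pairs were lower and 8 higher, in PABPC4 all 111 were higher, and in COL1A2 948 were lower and 402 higher. Recovered contacts keep the coverage of each bin, whose part in these directions was not tested.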

How the data were processed

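cHi-C of IMR90 ER:HRAS(G12V) cells (2 growing, 2 RIS libraries) and Hi-C (3 growing, 2 RIS) were analysed. Per the study's methods, libraries were made with HindIII and in-nucleus ligation, SureSelect baits enriched the captured regions, reads were checked with FastQC 0.11.5 and aligned to hg19 with HiC-Pro 2.10.0, and artefacts and duplicates were removed. For each library the authors deposited a signal for every 2 bins, contacts balanced by ICE, which equalizes bin sums, in bins of 10 kb (cHi-C) or 40 kb (Hi-C).

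Each library was scaled so that its total over the regions equalled the mean total. Whole contacts, recovered through 1 factor for each bin, came out (within 0.05, or 0.5% for large counts) for at least 99.88% of values of each cHi-C library. Region contact used pairs 20 kb to 1 Mb apart, and bands at least 50 pairs. Insulation used 10 bins to each side, of which at least 7 had values. The correlation was smoothed over 1 bin. All differences were tested by limma (lmFit, eBayes) on the log2 scale with Benjamini-Hochberg adjustment at 5% over all regions, combinations, positions or pairs. With 2 libraries a group, an exact permutation test cannot go below 0.33, or 0.2 for Hi-C. The p-values measure the spread between these libraries, which limma pools over regions, combinations, positions or pairs, at times wholly. Pairs needed a mean of at least 5, with a pseudocount of 0.5 and loess normalization (span 0.3).

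Named were the 5 regions with the largest rise and the 5 with the largest fall, regions that hold a listed gene, and the 10 insulation positions with the smallest p, at most 1 within 100 kb. Values of 3 regions are not reported here by name. Regions, lists and tests were chosen with earlier results of these data known. Coverage is given relative to the median bin. Alternatives covered scaling, windows, distances, region definitions, recovered contacts and each library left out. Fits were tested on simulated data. Python 3.11.15, numpy 2.4.6, pandas 2.3.3, scipy 1.17.1, matplotlib 3.10.9, R 4.3.3 and limma 3.58.1 were used.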

Additional observations from a re-analysis of the deposited data

How the results depend on the processing

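The count of regions called on contact level (20) became 43 on recovered contacts and 13 without a correction for distance, and ranged from 9 to 24 with 1 library left out. Combinations of region and band (58, with 23 higher and 35 lower) became 110 (70 and 40) and 31 (4 and 27), and 68 (43 and 25) after scaling by the median, with a range of 0 to 83. The slope count (36) ranged from 22 to 42, that of insulation positions (2096) from 1276 to 2285, and that of Hi-C regions (38) from 25, without RIS replicate 1, to 39. Pairs of bins (64) became 0 with a pseudocount of 1, 12 with a smallest mean of 20, 1402 with scaling to the total (298 higher, 1104 lower), 41917 with voom and 0 with a variance trend, an alternative added with the data in view, and ranged from 0 to 2705 with 1 library left out.

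With the replicate number as a block, 33 regions (14 higher, 19 lower) were called on contact level, including each of the 20, 70 combinations of region and band, 36 slopes, 2208 insulation positions and 0 pairs. ISG15/AGRN and HBA, not called without it, were among the 33 (adjusted p = 6.96e-10 and 7.61e-10, with the spread pooled over regions by limma). Deviations of same-numbered libraries correlated at 0.60 for region contact and 0.087 for insulation. As the labels name no shared batch and there are only 2 pairs, whether the numbers pair the libraries was not settled, and the values in the text are without the block.

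On recovered contacts 23 of the 61 regions had the opposite sign, of which 14 were called there, 6 on balanced values and 3 on both. Among them were PRKAR1A (0.095), SAA1/LDHA (0.11), NOTCH1 (0.28), LHX3 (0.34), PLEC (0.34), HSF1 (0.25) and EZH1 (0.22), and of the regions described above ISG15/AGRN (0.30), HBA (0.21), COL6A3 (0.0001), IGF2 (0.31), CDK18 (0.16), HMGA1 (0.32), the gene-free regions of chromosomes 16 (−0.22) and 4 (−0.35), CCNA2/ANXA5 (−0.067) and SMAD1 (−0.028), and the cause was not tested. Leaving out bins of low coverage or the 2 regions outside the study's list, both chosen after the data were seen, kept 17 and 18 of the 20 region calls. The 10 named insulation positions kept their direction and call in all 54 alternatives and 40 fits with a library left out that could be computed, although the size moved by over 1.5 times on recovered contacts at TLE3 (−0.25), COL1A2 (0.44), PDHX (0.15) and HIST1 (0.49), with the 50 kb window at HIST1 (0.19) and CD44 (−0.19) and with the 200 kb window at COL1A2 (0.11), HIST1 (0.19) and IL37 (0.11). The 10 positions were chosen by their p in the same libraries, so their stability is a description and no test. With 1 library left in a group, limma takes it to vary like the other group. Similarity within minus between conditions stayed at 0.028 to 0.034, positive in 60 of 61 regions with other smoothing or distances up to 300 kb. An exact permutation test of each region, which cannot go below 0.33, was not run. Depth is lowest in RIS 2 and in the MALT1 and FAT4 regions, followed by ISG15/AGRN, PLEC and NOTCH1. This limits the comparison of maps there, by an amount that was not tested.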
